A study of Homo sapiens with 24 samples.

Results

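BRAF V600E is the activating kinase mutation carried by both cell lines compared here, the thyroid cancer line SW1736 and the melanoma line SKMEL28. The comparison asks in which genes the response to 48 h of vemurafenib, an inhibitor of mutant BRAF, differed between them. For each gene it takes the 48 h change in SW1736, minus the 48 h change in SKMEL28, on the log2 scale. A positive difference means that the transcript ended higher relative to untreated cells in SW1736 than in SKMEL28, either because it increased more or because it decreased less. The 4 groups were SW1736 after 48 h of 2 µM vemurafenib, untreated SW1736 (0 h), SKMEL28 after 48 h of 2 µM vemurafenib and untreated SKMEL28 (0 h), with 3 Illumina bead arrays of total RNA in each. These are 12 of the 24 arrays of the study, whose other 12 hold each line at 1 h and 6 h. The comparison took all 13699 genes with a probe detected on at least 3 of the 24 arrays, each read from its brightest such probe. Without that filter there were 20046 genes. A gene could thus enter through a single group in which it was detected, but none was selected by its change. All groups were grown in RPMI with serum and carried BRAFV600E. None of the 4 groups held untreated cells kept for 48 h, so drug and time in culture cannot be told apart. The labels give 3 replicates for each group but do not say whether they were separate cultures, so the p-values reflect only how far these arrays scattered, and that scatter may be technical. Each tumour type is represented by a single line.

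BRAF is a kinase that activates MEK, which activates ERK, and ERK drives transcription of growth genes and of its own inhibitors, the Sprouty and SPRED proteins and the DUSP phosphatases. Vemurafenib blocks the mutant BRAF monomer, which lowers ERK activity and with it the brake that these inhibitors hold on receptor tyrosine kinases. In BRAF-mutant melanoma the drug is known to stop division and to raise pigment-cell genes, and in BRAF-mutant thyroid cancer renewed signalling through HER3, the product of ERBB3, is known to limit its action. The study's title concerns that relief of HER3 feedback in thyroid cells.

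On the 12 arrays, between 18371 and 19843 of 47231 probes were detected above background at a detection p under 0.05, and replicate arrays were more alike in SKMEL28 (median SD over genes 0.139) than in SW1736 (median SD 0.241). Markers went with the labelled tissues only in part. All 7 melanocyte markers with a probe were detected in SKMEL28, against 2 in SW1736 (MITF and PMEL). Of 6 thyroid markers, SW1736 had PAX8 and FOXE1, and in SKMEL28 the probes of PAX8 and TSHR passed on 2 of 3 arrays at 48 h. The hormone precursor TG, the iodide transporter SLC5A5 and the factor NKX2-1 were not detected in either line. Of 7 markers of blood, vessel and epithelial cells, CD14 passed in SW1736 at both times and on 2 of 3 untreated SKMEL28 arrays.

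The response differed between the lines in 2881 of 13699 genes at a Benjamini-Hochberg adjusted p under 0.05 in limma, which is 21.0% of genes. The difference was positive in 1574 genes (11.5%) and negative in 1307 (9.54%), and the higher and lower members of each gene list below are read against these shares. The lists and their members were chosen with earlier results of these data known. A list share above that of all genes may therefore come in part from that choice, and it is a description only. Values and detection are those of a gene's brightest probe unless a further probe is named. Within lines, 4692 genes changed by 48 h in SW1736 (34.3%) and 5328 in SKMEL28 (38.9%). Among the 2881 genes, 1242 changed in SKMEL28 without passing in SW1736, 823 changed in SW1736 without passing in SKMEL28, 470 changed the same way by unequal amounts, and 71 passed in neither line alone. The remaining 275, or 9.55% of the 2881, moved in opposite directions: 169 rose in SW1736 and fell in SKMEL28, and 106 fell in SW1736 and rose in SKMEL28. The difference was at least 1 on the log2 scale in 1719 genes, at least 2 in 329 and at least 3 in 72. In 2558 of the 2881 genes every SW1736 change, over all pairings of a 48 h with a 0 h array, lay on the same side of every SKMEL28 change, as it did in 3127 of all genes tested (22.8%). Of the called genes, 1170 higher and 972 lower ones were expressed in both lines, in the sense that the probe was detected on at least 2 of 3 arrays at 0 h or 48 h. A further 211 higher and 110 lower ones were expressed in SW1736 alone, and 190 higher and 223 lower ones in SKMEL28 alone.

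**Figure D1:**
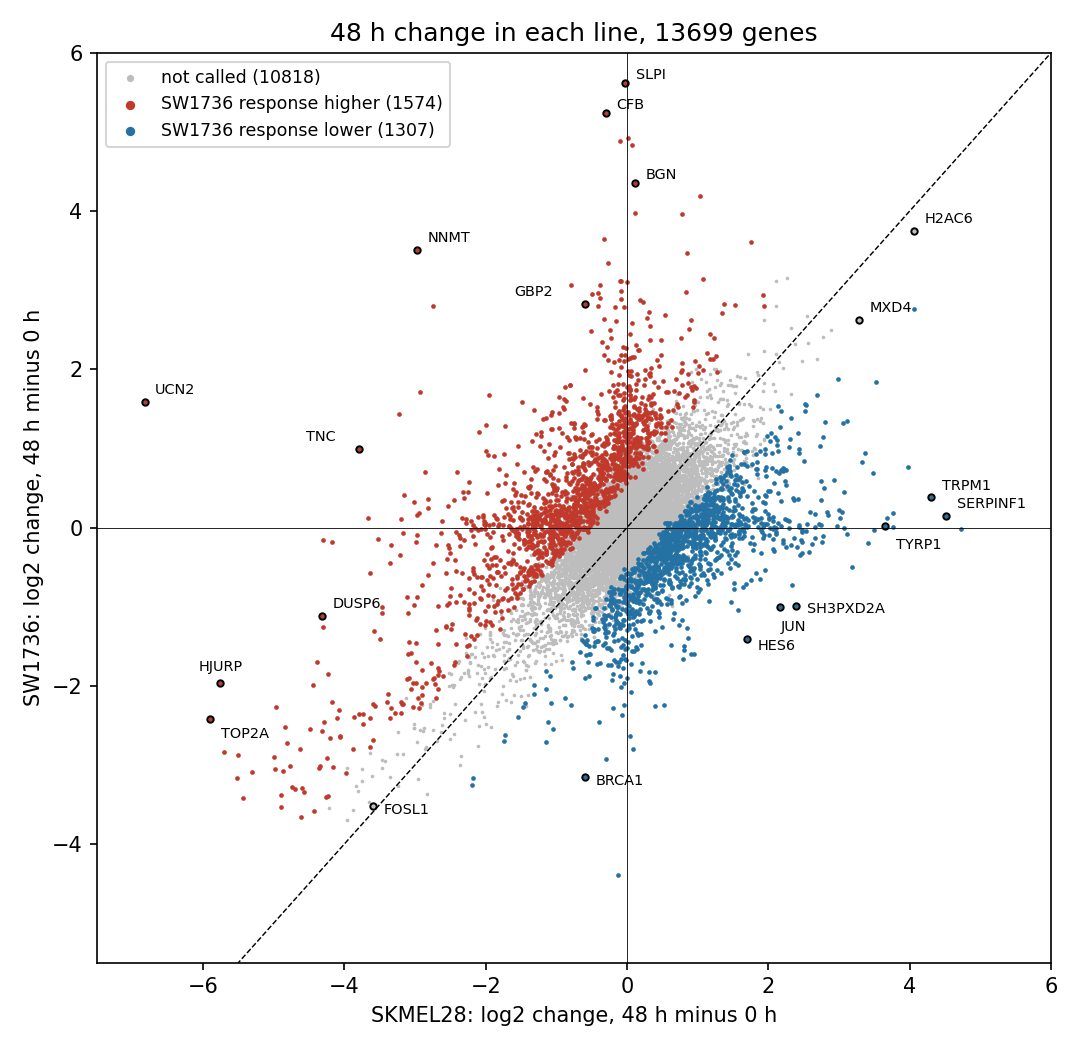
The log2 change from 0 h to 48 h in SW1736 (vertical axis) against that in SKMEL28 (horizontal axis) for 13699 genes, each point a gene and the dashed line equal change. Genes above the line (1574, red) had a higher response in SW1736, with UCN2, NNMT and TNC in the quadrant where SW1736 rose and SKMEL28 fell; genes below it (1307, blue) had a lower one, with JUN, HES6 and SH3PXD2A in the opposite quadrant.

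Genes that rose in SW1736 and fell in SKMEL28 included secreted and adhesion proteins. UCN2, which encodes the peptide urocortin 2, differed most among the genes expressed in both lines. In SW1736 its log2 intensity was 8.29, 7.63 and 7.94 at 48 h, against 5.82, 6.53 and 6.75 at 0 h. In SKMEL28, 5.47, 4.96 and 5.05 at 48 h stood against 12.07, 11.95 and 11.94 at 0 h. The 2 times did not overlap in either line, and the change was 1.59 in SW1736 and -6.83 in SKMEL28, a difference of 8.42 ± 0.31 (± SE, here and below; limma adjusted p 2.31e-14). In these bulk measurements, fewer cells with a transcript and less of it per cell cannot be told apart.

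NNMT, nicotinamide N-methyltransferase, read 11.26, 11.03 and 11.31 at 48 h in SW1736, against 7.90, 7.87 and 7.30 untreated, and 5.18, 6.03 and 4.87 at 48 h in SKMEL28, against 8.30, 8.26 and 8.43 untreated. It ended up as the higher transcript in treated SW1736 by a wide margin, although untreated SKMEL28 had been slightly above untreated SW1736, and the difference in response was 6.47 ± 0.31 (adjusted p 1.12e-12). Tenascin C, the matrix glycoprotein encoded by TNC, stood at 10.92, 10.90 and 10.90 at 48 h and 10.04, 9.79 and 9.91 at 0 h in SW1736, and at 8.13, 8.08 and 8.59 at 48 h and 12.03, 12.09 and 12.08 at 0 h in SKMEL28. The order of the lines was thereby exchanged, since TNC was higher in SKMEL28 before the drug and higher in SW1736 after it, with a difference of 4.79 ± 0.20 (adjusted p 1.6e-13); a further TNC probe gave 5.39. ITGB3, the integrin beta 3 subunit, changed by 1.44 in SW1736 and by -3.22 in SKMEL28 (difference 4.66 ± 0.25), again with no overlap of times in either line. The lipid phosphatase gene PLPP3 (difference 4.65 ± 0.26), the secreted protease gene ADAMTS9 (5.55 ± 0.45) and GPC6, a heparan sulphate proteoglycan of the cell surface (2.81 ± 0.24), behaved in the same way. For ADAMTS9 no SKMEL28 array passed detection at 48 h, so its fall there is at least 5.29-fold.

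HIF1A, the oxygen-regulated transcription factor subunit, was among these genes too. SW1736 arrays read 10.16, 9.88 and 10.61 at 48 h against 8.61, 8.67 and 8.61 at 0 h, and SKMEL28 arrays read 9.45, 9.46 and 9.52 against 10.93, 11.03 and 10.94. Every treated SW1736 array was above every untreated one, and every treated SKMEL28 array was below every untreated one (difference 3.08 ± 0.27, adjusted p 1.2e-08). Latexin (LXN), a carboxypeptidase inhibitor, rose by 3.07 in SW1736 and fell by 0.79 in SKMEL28 on the log2 scale (difference 3.86 ± 0.22). AKR1C2, an aldo-keto reductase of steroid metabolism, changed by 3.06 in SW1736 and -0.38 in SKMEL28 (difference 3.44 ± 0.19), and CKMT1B, a mitochondrial creatine kinase, by 1.68 and -1.95 (difference 3.63 ± 0.29). Both belong to families of near-identical copies that a probe may not separate, and the CKMT1B probe was undetected in SKMEL28 at 48 h, a fall of at least 2.68-fold.

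The reverse pattern, down in SW1736 and up in SKMEL28, was led by SH3PXD2A, JUN and HES6. SH3PXD2A encodes a scaffold of invadopodia. Its SW1736 values were 9.05, 8.86 and 8.27 at 48 h and 9.15, 10.06 and 9.92 at 0 h, and its SKMEL28 values 10.62, 10.62 and 10.56 at 48 h and 8.13, 8.31 and 8.17 at 0 h, a difference of -3.38 ± 0.27 (adjusted p 3.12e-09). JUN, an AP-1 transcription factor subunit, gave 6.78, 7.96 and 7.49 at 48 h and 8.35, 8.42 and 8.48 at 0 h in SW1736, and 9.18, 9.00 and 9.05 at 48 h and 6.83, 7.04 and 6.85 at 0 h in SKMEL28. Untreated SW1736 thus had more JUN signal than untreated SKMEL28, and the order was the reverse after 48 h (difference -3.18 ± 0.36, adjusted p 5.52e-07). HES6, a basic helix-loop-helix factor that opposes HES1, fell by 1.40 in SW1736 and rose by 1.71 in SKMEL28 (difference -3.11 ± 0.21). HPS4, which acts in the biogenesis of melanosomes and other lysosome-related organelles, differed by -3.07 ± 0.23, RAB38, a GTPase that carries melanosome cargo, by -2.61 ± 0.24, and MYO5A, the motor that moves melanosomes, by -2.50 ± 0.25. SMC6, a subunit of a chromosome maintenance complex, changed by -0.92 in SW1736 and 1.15 in SKMEL28 (difference -2.08 ± 0.33), and ARRDC4, an arrestin-domain protein, by -0.95 and 1.48 (difference -2.43 ± 0.37). RAP1GAP, which switches off the GTPase RAP1, had the lowest difference among genes expressed in both lines (-3.67 ± 0.39), from a rise of 3.18 in SKMEL28 and a change of -0.50 in SW1736 that did not pass.

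**Figure D2:**
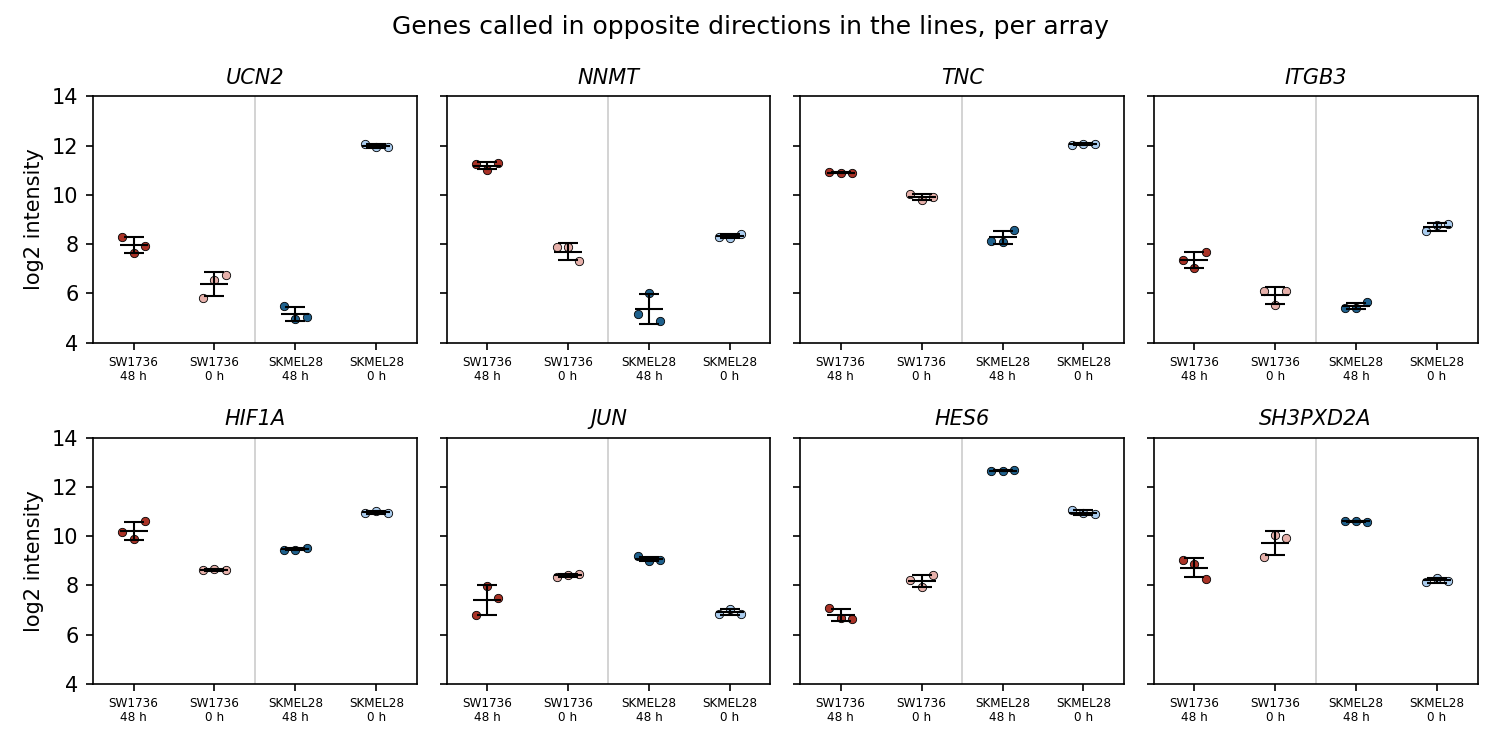
Log2 intensity on each of the 12 arrays for 8 genes that changed in opposite directions, with points for arrays and bars for the mean ± SD of 3 arrays; columns from left are SW1736 48 h, SW1736 0 h, SKMEL28 48 h and SKMEL28 0 h. UCN2, NNMT, TNC, ITGB3 and HIF1A step up in SW1736 and down in SKMEL28, and JUN, HES6 and SH3PXD2A do the reverse.

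Some of the widest differences came from genes that only 1 of the lines expressed. SLPI, a secreted inhibitor of leukocyte proteases, rose by 5.63 in SW1736 and was undetected on all 6 SKMEL28 arrays (difference 5.65 ± 0.30). BGN, the matrix proteoglycan biglycan, rose by 4.36 in SW1736, also without detection in SKMEL28 (4.25 ± 0.26). CLIC3, an intracellular chloride channel family member (4.92 ± 0.29), and RARRES1, a retinoid-induced gene (4.77 ± 0.43), rose in SW1736 likewise. KCNJ16, a potassium channel subunit, differed by 4.98 ± 0.26 by its brightest probe, while a further probe detected on 5 of 12 arrays gave -0.41. In SKMEL28 the channel gene KCNJ13 rose by 4.73, SERPINF1, which encodes pigment epithelium-derived factor, by 4.52, and the transcriptional coactivator CITED1 by 3.77, and none of these passed detection on more than 1 of 3 arrays of SW1736 at either time (differences -4.75, -4.37 and -3.76). The long noncoding RNA MANCR was the opposite case: it was present in untreated SW1736 only, fell there by at least 18.1-fold to below detection, and was undetected in SKMEL28 (difference -4.26 ± 0.21).

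ERK output fell in both lines, and it fell further in SKMEL28. Of 26 listed genes of ERK output, 25 were tested; 13 of them ended higher in SW1736 (52%, against 11.5% of all genes) and 2 ended lower (8%, against 9.54%). Against untreated cells, 13 of the 25 fell in SW1736, where 16.1% of all genes fell, and 19 fell in SKMEL28, where 18.8% of all genes fell. The list's median change was -0.58 in SW1736 and -1.27 in SKMEL28, and its median difference 0.79, against 0.00 for all genes. At 48 h, 4 of the 25 probes were undetected on all SKMEL28 arrays and 3 on all SW1736 arrays. Without background correction 13 were higher and 2 lower, and the median difference was 0.72.

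The widest differences in the list were those of the feedback inhibitors. DUSP6, the phosphatase that removes phosphate from ERK, read 7.05, 7.08 and 6.89 at 48 h and 8.05, 8.08 and 8.24 at 0 h in SW1736. In SKMEL28 it read 5.28, 5.51 and 5.70 at 48 h and 9.86, 9.61 and 9.95 at 0 h. It fell in both lines with no overlap of times, by 1.12 in SW1736 and by 4.31 in SKMEL28, a difference of 3.20 ± 0.29 (adjusted p 2.57e-08). The Sprouty proteins block receptor signalling upstream of RAF. SPRY2 was at 11.41, 11.29 and 11.36 in treated SW1736 and 11.11, 10.68 and 11.15 in untreated SW1736, and at 8.59, 8.88 and 8.69 in treated SKMEL28 and 11.04, 11.01 and 11.01 in untreated SKMEL28. The lines started alike, and 48 h later only the SKMEL28 level was down (difference 2.68 ± 0.23, adjusted p 8.03e-09; the SW1736 change of 0.37 did not pass). SPRY4 fell by 3.33 in SKMEL28, against a change of -0.22 in SW1736 that did not pass (difference 3.11 ± 0.31), and its level in SW1736 minus that in SKMEL28 was 0.16 at 48 h and -2.95 untreated. SPRY1 moved in opposite directions, by 1.03 in SW1736 and -1.54 in SKMEL28 (difference 2.57 ± 0.26). So did DUSP5, a nuclear ERK phosphatase, which was chosen after its values were seen (0.94 in SW1736, -0.84 in SKMEL28, difference 1.78 ± 0.29). SPRED1, a partner of neurofibromin, differed by 1.16 ± 0.24, and the phosphatase gene DUSP4 by 1.46 ± 0.50 (adjusted p 0.0421). For DUSP4 the SW1736 arrays were spread enough that the lines' changes overlapped for some pairings of arrays, and the call was lost when any 1 of 9 of the 12 arrays was left out (1.00 without the second treated SW1736 array). A further DUSP4 probe, detected on 6 of 12 arrays, gave a difference of 0.43 that did not pass.

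Transcription factors and growth genes below ERK were divided. ETV4, an ETS factor that ERK induces, gave 7.55, 7.62 and 7.65 at 48 h and 8.41, 8.62 and 9.02 at 0 h in SW1736, and 5.55, 5.22 and 4.92 at 48 h and 8.87, 8.57 and 8.65 at 0 h in SKMEL28. The lines had similar untreated levels, and the fall was larger in SKMEL28 (difference 2.39 ± 0.30, adjusted p 2.35e-06). Smaller positive differences were found for ETV5 (0.79 ± 0.20), the early growth response factor EGR1 (1.22 ± 0.38) and the G1 cyclin gene CCND1 (0.74 ± 0.23). A further ETV5 probe, detected on 12 of 12 arrays, gave a difference of 0.53 that did not pass. The EGR1 call was lost without the third array of any group (1.04, adjusted p 0.0699, without that of treated SW1736). The CCND1 call was lost without the third untreated SW1736 array (0.55) or the second untreated SKMEL28 array (0.69). FOSL1, an AP-1 subunit stabilised by ERK, fell in each line to a similar extent: 6.01, 6.05 and 5.75 at 48 h against 9.45, 9.41 and 9.50 at 0 h in SW1736, and 5.06, 6.54 and 4.68 at 48 h against 9.13, 8.98 and 8.96 at 0 h in SKMEL28. Its difference was 0.08 ± 0.39, with a 95% interval of -0.71 to 0.88 (adjusted p 0.915), and the treated SKMEL28 arrays were wide apart. Without the second of them the difference was 0.64 and passed (adjusted p 0.0381). For MYC the difference was -0.26 ± 0.22, with a 95% interval of -0.71 to 0.19 (adjusted p 0.45), and for PHLDA1 0.04 ± 0.21, with one of -0.40 to 0.49 (adjusted p 0.925). EMP1, a membrane protein gene chosen after its values were seen, was the clearest exception: it fell by 1.27 in SW1736 and rose by 0.85 in SKMEL28 (difference -2.11 ± 0.22). Among other immediate early genes, FOS differed by 2.80 ± 0.26, with a fall of at least 4.73-fold to below detection in SKMEL28, FOSB by 1.85 ± 0.33 and CCN1, a matrix-associated signalling protein, by -2.07 ± 0.27; 3 of the 24 tested in that list were higher (12.5%) and 5 lower (20.8%).

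**Figure D3:**
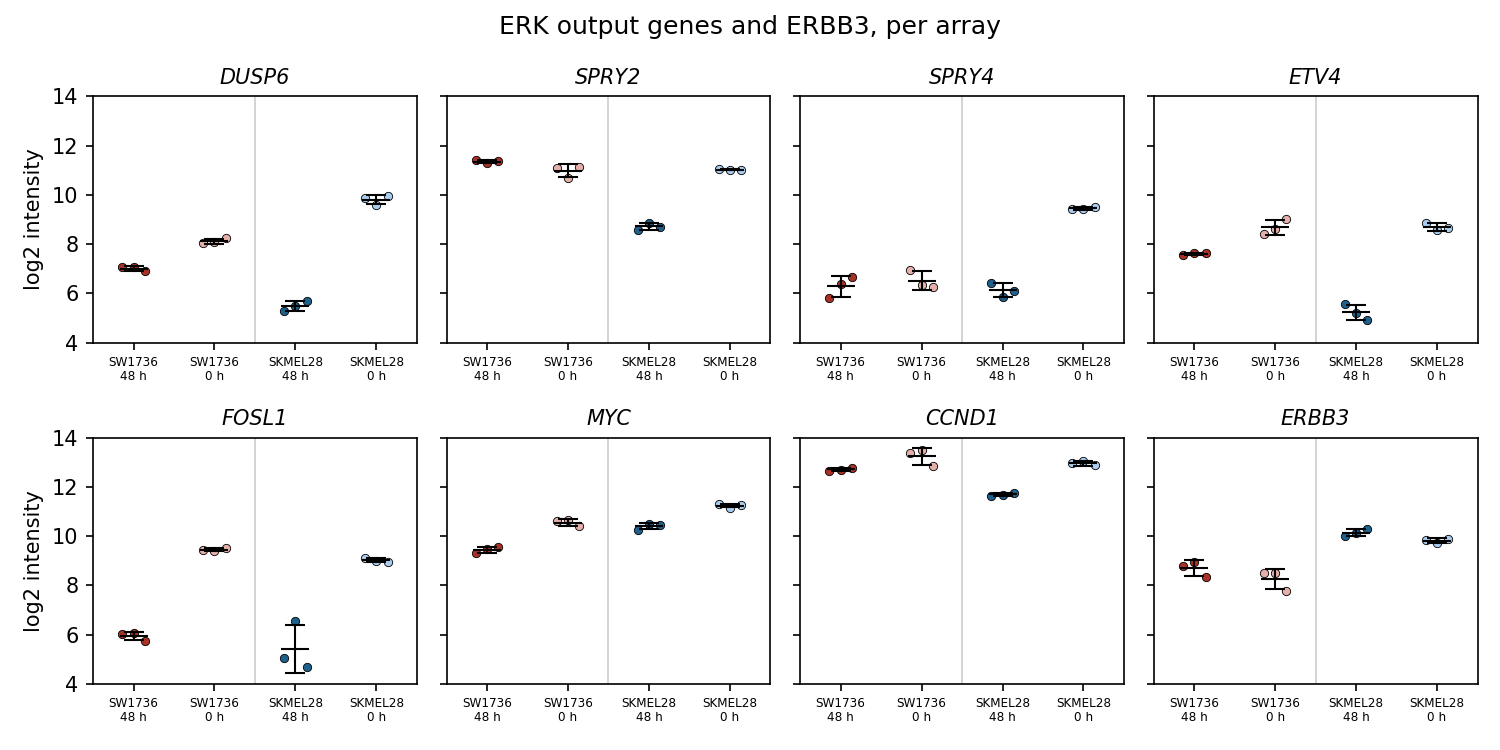
Log2 intensity on each of the 12 arrays for 7 genes of ERK output and for ERBB3, with points for arrays and bars for the mean ± SD of 3 arrays; columns from left are SW1736 48 h, SW1736 0 h, SKMEL28 48 h and SKMEL28 0 h. DUSP6, SPRY2, SPRY4 and ETV4 drop further in SKMEL28, while FOSL1, MYC and ERBB3 show differences of 0.08, -0.26 and 0.10 that did not pass.

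ERBB3, the subject of the study's title, showed no difference between the lines that passed. On the brightest probe, SW1736 arrays were at 8.79, 8.95 and 8.33 at 48 h and 8.50, 8.51 and 7.79 at 0 h, and SKMEL28 arrays at 10.00, 10.13 and 10.30 at 48 h and 9.86, 9.70 and 9.90 at 0 h. Treated and untreated values overlapped in SW1736 and did not overlap in SKMEL28; the change was 0.43 in SW1736 and 0.32 in SKMEL28, and neither passed. The difference was 0.10 ± 0.26 (95% interval -0.44 to 0.64, adjusted p 0.837). The other ERBB3 probes gave differences of -0.61, detected on 12 of 12 arrays, and -0.53, detected on 6 arrays and on none of SW1736, and neither passed. The probe detected on 12 arrays changed by -0.04 in SW1736 and 0.57 in SKMEL28, and the other by 0.02 and 0.54. The SW1736 change of 0.43 was thus seen on the brightest probe alone. ERBB2, its signalling partner, rose in both lines, by 0.56 in SW1736 and 0.48 in SKMEL28 (difference 0.08 ± 0.24, 95% interval -0.41 to 0.58, adjusted p 0.858). CTBP1 and CTBP2, corepressors that have been tied to ERBB3 transcription, differed by -0.07 ± 0.17 and -0.32 ± 0.29, and neither passed (adjusted p 0.834 and 0.489).

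Of the family's ligands and adaptors, HBEGF, NRG1 and GAB2 differed, and the ligand gene TGFA did not pass. HBEGF, a ligand of EGFR, gave 5.18, 5.15 and 5.85 at 48 h and 6.76, 6.12 and 6.53 at 0 h in SW1736, and 8.48, 8.51 and 8.18 at 48 h and 7.87, 7.57 and 7.75 at 0 h in SKMEL28. It fell in SW1736 and rose in SKMEL28 (difference -1.74 ± 0.35, adjusted p 0.000925), and at 48 h only 1 of 3 SW1736 arrays passed detection. NRG1, the neuregulin that binds HER3, fell by 1.88 in SW1736 (difference -1.34 ± 0.37, adjusted p 0.011). Its brightest probe passed detection on 1 of 3 untreated and no treated SKMEL28 arrays, whereas a further probe passed on 3 of 3 treated and no untreated ones and gave a difference of -1.10. GAB2, a docking protein downstream of receptors, differed by -1.29 ± 0.29, with 0.29 on a further probe detected on 3 of 12 arrays and, with the mean of its probes, a difference of -0.50 that did not pass. CBLB, a ubiquitin ligase that removes activated receptors, differed by 1.58 ± 0.35. EGFR was detected on all SW1736 arrays and in SKMEL28 on 1 of 3 treated arrays by each of 2 further probes, and the difference of 0.43 ± 0.27 did not pass (adjusted p 0.296), nor did that of TGFA (-0.06 ± 0.26, adjusted p 0.912). In all, 3 of 20 tested members of the ERBB list were higher and 3 lower, which is 15% each way beside 11.5% and 9.54% of all genes.

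Among other receptor tyrosine kinases, 5 of 16 tested changed in SW1736, beside 34.3% of all genes, and 6 in SKMEL28, beside 38.9%. Both counts were near those shares. MET, the hepatocyte growth factor receptor, did not pass in SW1736, at 10.71, 10.83 and 10.89 at 48 h and 10.87, 10.75 and 10.99 at 0 h, and stood at 10.04, 9.93 and 9.80 at 48 h and 7.85, 8.14 and 8.03 at 0 h in SKMEL28. Treated SKMEL28 was above untreated SKMEL28 on every array, and the difference was -1.98 ± 0.20 (adjusted p 7.98e-08). PDGFRB, a platelet-derived growth factor receptor, rose in SW1736 to 8.59, 8.74 and 8.77 at 48 h, against 5.26, 5.09 and 5.74 at 0 h, and was undetected in SKMEL28 (difference 3.60 ± 0.24). AXL, a receptor of the TAM family, fell by 1.45 in SW1736 and was also undetected in SKMEL28 (-1.47 ± 0.35). IGF1R, the insulin-like growth factor 1 receptor, was detected only in SKMEL28, where it fell by 1.32 (1.58 ± 0.26). Of 16 tested in this list, 6 were higher (37.5%) and 3 lower (18.8%).

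Genes of cell division fell in both lines, and further in SKMEL28. All 34 tested mitosis genes fell in each line, where 16.1% of all genes fell in SW1736 and 18.8% in SKMEL28. The list's median change was -2.66 in SW1736 and -4.13 in SKMEL28, and 26 of the 34 were higher in the difference (76.5%, against 11.5% of all genes), with none lower. TOP2A, the topoisomerase of dividing cells, read 9.51, 9.23 and 10.22 at 48 h and 11.67, 12.20 and 12.33 at 0 h in SW1736. In SKMEL28, 5.25, 4.93 and 5.45 at 48 h stood against 11.19, 10.98 and 11.17 at 0 h. Both lines separated fully by time, and the difference was 3.48 ± 0.32 (adjusted p 2.57e-08). CDC20, which activates the anaphase-promoting complex, read 9.96, 9.41 and 9.87 at 48 h and 12.96, 12.48 and 12.41 at 0 h in SW1736, and 6.23, 6.84 and 6.59 at 48 h and 12.06, 12.18 and 11.91 at 0 h in SKMEL28. Untreated levels were close, and the treated SKMEL28 level was the lowest (difference 2.63 ± 0.26).

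The spindle protein gene NUSAP1 differed by 2.46 ± 0.21, and the ubiquitin-conjugating enzyme gene UBE2C by 2.87 ± 0.20 on its brightest probe but by -1.58 on a further probe detected on 7 of 12 arrays. HJURP, the chaperone that places CENPA at centromeres, fell in SW1736 by 1.97 on the log2 scale and in SKMEL28 by at least 34.5-fold, to below detection (fitted difference 3.79 ± 0.20). PLK1, the mitotic kinase, was chosen after its values were seen as the member furthest the other way, and its difference of -0.53 ± 0.28 did not pass (adjusted p 0.199). At 48 h, 7 of the 34 mitosis probes were undetected on all SKMEL28 arrays, so that the size of the SKMEL28 fall is set partly by background treatment: without background correction 18 members were higher and 1 lower, and the median difference was 0.52 in place of 1.32.

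S-phase genes fell in both lines as well. The fall passed for 33 of 34 in SW1736, beside 16.1% of all genes, and for 32 of 34 in SKMEL28, beside 18.8%. Their medians were -1.82 in SW1736 and -2.31 in SKMEL28. In the difference 12 of the 34 were higher (35.3%, against 11.5% of all genes) and 1 lower (2.94%, against 9.54%). Without background correction the list's median difference was 0.12 in place of 0.47. TYMS, thymidylate synthase, fell by 2.72 in SW1736 and by 4.81 in SKMEL28 (difference 2.09 ± 0.22), and CDC45, a part of the replicative helicase, by 3.28 in SW1736 and by 4.75 in SKMEL28 (1.47 ± 0.21). Of 22 DNA repair genes, 11 were higher (50%, against 11.5% of all genes) and 2 lower (9.09%, against 9.54%). Without background correction 7 were higher and 3 lower, and the list's median difference was 0.28 in place of 0.69. CHEK1, the replication checkpoint kinase, differed by 1.19 ± 0.23, and by 0.45 without background correction, which did not pass. The helicase gene BLM, called higher as well (1.31 ± 0.26), was undetected at 48 h in both lines, after falls of at least 3.33-fold in SW1736 and 7.26-fold in SKMEL28, so its difference does not show which line fell further. BRCA1, which acts in homologous recombination, ran against its list. It gave 6.50, 5.64 and 5.89 at 48 h and 9.17, 9.12 and 9.22 at 0 h in SW1736, and 7.36, 7.43 and 7.70 at 48 h and 8.13, 7.98 and 8.16 at 0 h in SKMEL28. It fell in both lines and by far more in SW1736, with a difference of -2.57 ± 0.33 (adjusted p 3.66e-06) and -2.08 on a further probe.

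Among brakes on the cycle, the inhibitor gene CDKN1A, a p53 target, fell less in SW1736 (-0.56) than in SKMEL28 (-1.84, difference 1.28 ± 0.26); without background correction the difference was 0.46 and did not pass. CDKN1B rose in both, by 0.81 in SW1736 and 1.77 in SKMEL28 (difference -0.96 ± 0.34, adjusted p 0.0473), and that difference lost its call under 16 of 30 other settings, among them leaving out any 1 of 10 arrays (-0.75 to -1.01). GAS1, a growth-arrest gene, rose by 2.63 in SW1736 and 0.91 in SKMEL28 (1.72 ± 0.27).

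The promoters of the mitosis genes share a short element, the cell cycle genes homology region (CHR), through which a repressor complex is known to act in resting cells. RefSeq promoters (GRCh38.p14, from 250 bases before to 50 after the start) were matched for 28 of the 34 genes. The letters TTTGAA, on either strand, were found in 20 of the 28 (71.4%), against 10.5% of the promoters of all genes tested. The stretches around the match in TOP2A and CDC20 are shown, since these genes have their values above; capitals mark the match, which in TOP2A is read on the reverse strand.
TOP2A, chr17:40418015-40418074, minus strand: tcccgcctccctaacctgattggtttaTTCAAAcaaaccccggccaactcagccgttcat
CDC20, chr1:43358889-43358948, plus strand: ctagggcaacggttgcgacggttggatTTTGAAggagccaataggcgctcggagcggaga
Over all 1143 tested genes with these letters, 14.5% were higher in the difference and 8.57% lower, against 11.6% and 9.76% of all genes with a promoter in the table. A match of letters is a description of the sequence and not a binding site.

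Interferon-stimulated genes rose in SW1736 and as a group did not in SKMEL28. Of 44 listed genes, 42 were tested, and 34 of them rose in SW1736, where 18.2% of all genes rose, and 1 fell. In SKMEL28, 4 rose and 11 fell, beside 20.0% and 18.8% of all genes. In the difference, 28 of 42 were higher (66.7%, against 11.5% of all genes) and none lower, with a median of 1.11 (medians of 1.03 in SW1736 and -0.07 in SKMEL28), and 8 of them had opposite called directions. The count of higher members was 22 to 33 over the alternative settings that kept the threshold and counted genes.

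GBP1, a guanylate-binding protein induced by interferon, gave 8.21, 9.10 and 8.49 at 48 h and 7.88, 7.05 and 7.98 at 0 h in SW1736. In SKMEL28 it gave 5.69, 5.76 and 5.42 at 48 h and 7.74, 7.66 and 7.46 at 0 h. It rose in SW1736 and fell in SKMEL28 (difference 2.97 ± 0.33, adjusted p 3.56e-07), and untreated levels overlapped between the lines. IFI44L, an interferon-induced protein, read 9.15, 9.88 and 9.31 at 48 h and 6.36, 6.56 and 6.08 at 0 h in SW1736, with no SKMEL28 array detected at either time (difference 3.21 ± 0.25). A further probe, detected on 1 of 3 untreated SKMEL28 arrays, gave 1.05. GBP2 rose by 2.83 in SW1736 and fell by 0.60 in SKMEL28 (3.43 ± 0.30), and IFITM1, a membrane protein that limits virus entry, rose by 2.35 in SW1736 with SKMEL28 at the edge of detection (2.71 ± 0.24). ISG15, a ubiquitin-like modifier chosen after its values were seen, had 12.31, 12.33 and 12.02 at 48 h and 11.23, 10.87 and 10.96 at 0 h in SW1736, and 7.17, 7.47 and 7.22 at 48 h and 8.48, 8.54 and 8.51 at 0 h in SKMEL28, again up in 1 line and down in the other (2.43 ± 0.21). OAS3, an RNA sensor also chosen after its values were seen, was the 1 member that fell in SW1736 (-0.57), though by less than in SKMEL28 (-2.56). The immunoproteasome genes of MHC class I presentation were positive too: PSMB9 differed by 1.68 ± 0.29 on its brightest probe, against 0.26 on a further one, and PSMB10 by 1.01 ± 0.22, while 4 of the 19 tested members of that list were higher (21.1%) and none lower.

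The interferon-stimulated response element (ISRE), a known element of interferon-induced promoters, was searched on both strands as GAAA, NN and GAAA in a row. It was found in 21 of the 32 interferon promoters matched (65.6%), against 2.96% of the promoters of all genes tested. Its copies in the 3 most different members that had a match are shown, with the match in capitals; in GBP1 it is read on the reverse strand.
IFI44L, chr1:78620350-78620409, plus strand: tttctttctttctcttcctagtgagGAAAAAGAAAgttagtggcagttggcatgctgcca
IFITM1, chr11:313975-314034, plus strand: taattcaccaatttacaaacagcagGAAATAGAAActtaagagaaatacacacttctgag
GBP1, chr1:89065301-89065360, minus strand: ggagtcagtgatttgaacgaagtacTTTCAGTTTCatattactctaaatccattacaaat
Over all 322 tested genes with this element, 17.1% were higher in the difference and 5.90% lower, beside 11.6% and 9.76% of all genes with a promoter in the table.

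Complement and acute-phase genes, which encode plasma defence proteins that epithelial cells also secrete, rose in SW1736. Of 21 listed, 15 were tested; 13 rose in SW1736, where 18.2% of all genes rose, and 5 in SKMEL28, where 20.0% did. In the difference 9 were higher and 1 lower (60% and 6.67%, against 11.5% and 9.54% of all genes). The list's median was 1.52 in SW1736 and 0.17 in SKMEL28, and 8 of the 15 were expressed in SW1736 alone. CFB, complement factor B, read 13.14, 13.07 and 13.01 at 48 h and 7.63, 7.76 and 8.12 at 0 h in SW1736, while in SKMEL28 1 array passed detection, at 0 h (difference 5.54 ± 0.26, adjusted p 6.19e-13). C1S, a protease of the first complement component, gave 11.22, 11.54 and 11.32 at 48 h and 6.91, 7.14 and 7.44 at 0 h in SW1736, and 5.53, 5.94 and 6.23 at 48 h and 4.82, 4.96 and 4.81 at 0 h in SKMEL28, where no untreated array passed detection. On this probe C1S rose in both lines, in SKMEL28 by at least 1.58-fold, and more in SW1736 (3.16 ± 0.33). A further C1S probe, undetected on every SKMEL28 array, changed by 3.36 in SW1736 and 0.03 in SKMEL28. C1R, the partner of C1S, differed by 2.62 ± 0.28, and SAA1, serum amyloid A, by 2.96 ± 0.27 with no detection in SKMEL28. Without background correction the list's median difference was 0.78 in place of 1.56, with 10 members higher and 1 lower. CD14, a marker of monocytes that SW1736 expressed, also rose there, by 1.98 (difference 1.96 ± 0.37), and whether it had a part in these results was not tested.

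**Figure D4:**
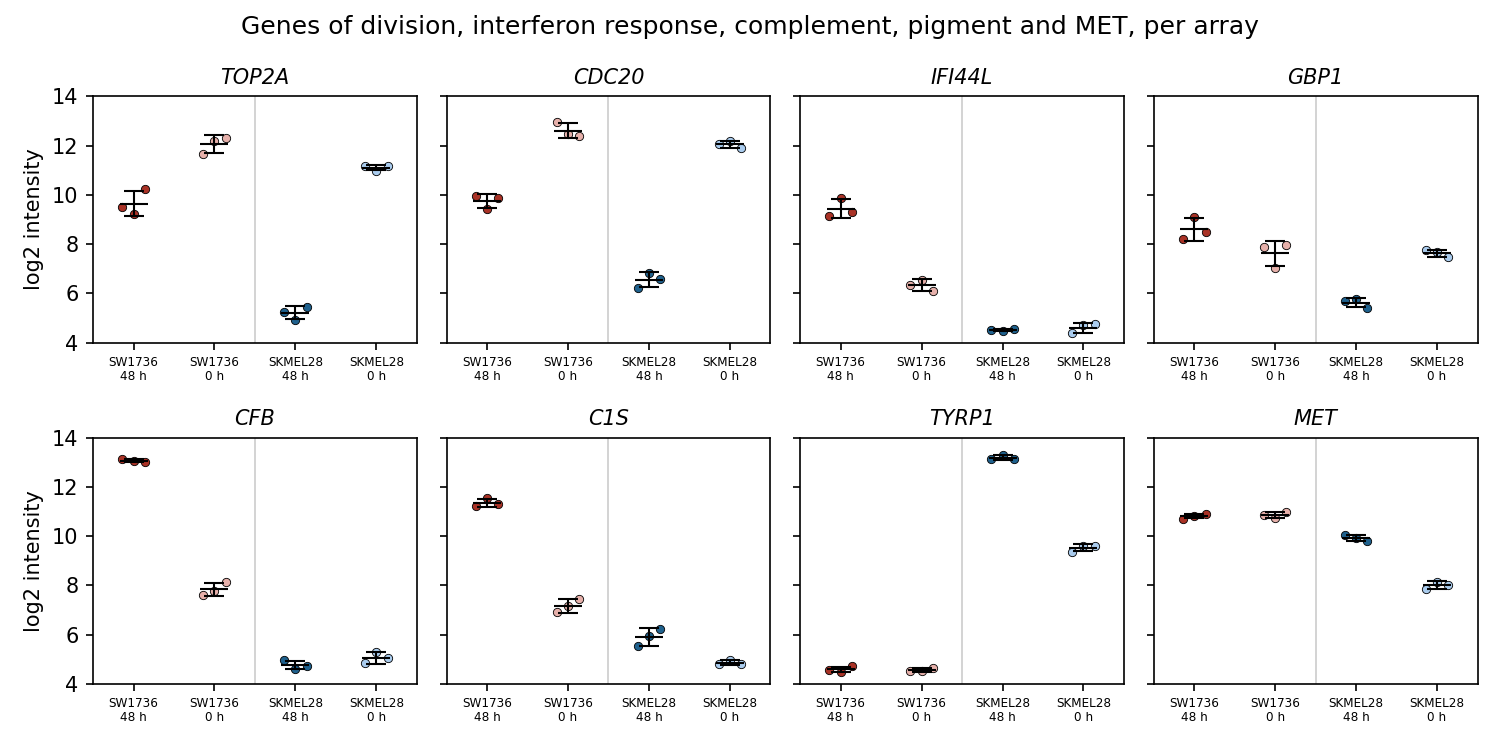
Log2 intensity on each of the 12 arrays for genes of division (TOP2A, CDC20), interferon response (IFI44L, GBP1), complement (CFB, C1S), pigment (TYRP1) and for MET, with points for arrays and bars for the mean ± SD of 3 arrays; columns from left are SW1736 48 h, SW1736 0 h, SKMEL28 48 h and SKMEL28 0 h. The division genes drop in both lines and furthest in SKMEL28, IFI44L, CFB and C1S climb most in SW1736, and TYRP1 and MET climb in SKMEL28 alone.

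Inflammatory cytokines did not share this direction: 6 of 24 tested were higher and 6 lower (25% each way). CXCL8, the neutrophil chemokine interleukin 8, fell by 1.71 in SW1736 and by 4.39 in SKMEL28, where no treated array passed detection (difference 2.68 ± 0.35). A further probe, detected on 2 of 3 treated SKMEL28 arrays, gave a difference of 1.15 that did not pass. CCL20, a chemokine for dendritic cells and lymphocytes, was detected only in SKMEL28 and fell there by 1.90 (1.84 ± 0.22).

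Pigment-cell genes rose in SKMEL28 and were for the most part undetected in SW1736. Of 28 listed, 25 were tested and 16 of these were detected in SKMEL28 alone. In SKMEL28 17 of the 25 rose, where 20.0% of all genes rose. In the difference 16 were lower (64%, against 9.54% of all genes) and 3 higher (12%, against 11.5%). TYRP1, a melanosome enzyme of melanin synthesis, read 13.13, 13.30 and 13.12 at 48 h and 9.36, 9.60 and 9.62 at 0 h in SKMEL28 and was undetected on all 6 SW1736 arrays (difference -3.63 ± 0.19, adjusted p 3.83e-12). TRPM1, the channel gene melastatin, rose by 4.30 in SKMEL28 (-3.92 ± 0.32). The melanosome transporter gene OCA2 (-2.50 ± 0.19), the endothelin receptor gene EDNRB (-2.40 ± 0.21) and TYR, the enzyme that starts melanin synthesis (-1.64 ± 0.16), were chosen after their values were seen and rose in the same way.

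MITF, the master regulator of pigment cells, was expressed in both lines. It gave 6.44, 5.79 and 6.05 at 48 h and 6.19, 6.16 and 6.25 at 0 h in SW1736, and 11.67, 11.46 and 11.84 at 48 h and 10.88, 10.74 and 10.77 at 0 h in SKMEL28, and it rose in SKMEL28 alone (difference -0.97 ± 0.30, adjusted p 0.021). That call was lost without the second treated SW1736 array (-0.82) or the third treated SKMEL28 array (-0.88). SOX10, the neural crest factor above MITF, was detected only in SKMEL28, and its difference of -0.27 ± 0.20 did not pass (95% interval -0.70 to 0.15, adjusted p 0.391). CDK2, a cell cycle kinase gene that MITF also drives, was chosen after its values were seen and fell by 1.66 in SW1736 and rose by 0.79 in SKMEL28 (-2.45 ± 0.21). The list's exceptions were ST8SIA1, the GD3 ganglioside synthase, which fell by 2.81 in SKMEL28 (3.06 ± 0.25), and MC1R, the melanocortin receptor, chosen after its values were seen, which fell there by 1.62 (1.87 ± 0.28); the third was S100B.

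TRPM1 hosts a microRNA in an intron, MIR211, whose probe was noticed after its values were seen. Its 5′ mature strand (RefSeq, GRCh38.p14, chr15:31065095-31065116, minus strand) is shown with the seed, bases 2 to 8, in capitals.
hsa-miR-211-5p: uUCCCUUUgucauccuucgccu
The MIR211 probe read 7.15, 7.11 and 7.43 at 48 h and 4.92, 4.81 and 4.68 at 0 h in SKMEL28, where all treated and no untreated arrays passed detection, which makes the rise at least 3.95-fold. In SW1736, 1 treated array passed (difference -2.07 ± 0.27, adjusted p 5.06e-06). Whether the probe reads the mature strand or its precursor is not given in the sources used here. MIR21, the other microRNA gene examined, was detected in treated SW1736 alone, at least 1.92-fold above untreated SW1736 (difference 1.15 ± 0.35), and its call was lost without the third treated SW1736 array (0.92).

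The M-box, an element bound by MITF, was searched as TCATGTG on both strands. It was found in 5 of 19 matched pigment promoters (26.3%), against 1.82% of those of all genes tested. Its copies in TYRP1 and TYR, the enzymes that rose in SKMEL28, are shown with the match in capitals.
TYRP1, chr9:12693213-12693272, plus strand: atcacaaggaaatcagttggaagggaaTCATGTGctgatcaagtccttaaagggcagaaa
TYR, chr11:89177743-89177802, plus strand: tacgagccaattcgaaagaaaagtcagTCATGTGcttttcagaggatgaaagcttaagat
The 198 tested genes with these letters were higher in the difference in 13.1% and lower in 13.6%, beside 11.6% and 9.76% of all genes with a promoter.

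Genes of glucose use fell further in SKMEL28. Of 29 tested genes of glycolysis and hypoxia, 19 fell in SKMEL28, where 18.8% of all genes fell, and 11 in SW1736, where 16.1% did. In the difference 12 were higher (41.4%, against 11.5%) and none lower (against 9.54%). SLC2A1, the glucose transporter GLUT1, was at 10.89, 11.30 and 10.91 at 48 h and 11.26, 11.18 and 10.69 at 0 h in SW1736, and at 8.46, 8.60 and 8.71 at 48 h and 10.73, 10.71 and 10.77 at 0 h in SKMEL28. The SW1736 times overlapped and those of SKMEL28 did not (difference 2.14 ± 0.23, adjusted p 2.04e-07). SLC2A3, the transporter GLUT3, moved in opposite directions (1.27 in SW1736, -0.64 in SKMEL28, difference 1.91 ± 0.21). The phosphofructokinase gene PFKP (1.72 ± 0.18), PFKFB4, which sets the level of a regulator of that enzyme (2.16 ± 0.27), and PKM, pyruvate kinase, chosen after its values were seen (1.63 ± 0.24), had positive differences; PFKP fell in both lines and further in SKMEL28, and the other two passed in SKMEL28 alone, where they fell. Of 30 subunits of oxidative phosphorylation, 2 were higher (6.67%) and none lower.

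Amino acid and ATF4 stress genes leaned the other way. Of 28 tested, 10 were lower (35.7%, against 9.54%) and 4 higher (14.3%, against 11.5%). SLC7A5, the light chain of the leucine transporter LAT1, gave 10.72, 11.14 and 10.99 at 48 h and 12.27, 12.84 and 12.25 at 0 h in SW1736, and 12.40, 12.52 and 12.54 at 48 h and 11.73, 11.64 and 11.67 at 0 h in SKMEL28. It fell in SW1736 and rose in SKMEL28 (-2.31 ± 0.23), and its heavy chain SLC3A2 did the same (-1.40 in SW1736, 0.86 in SKMEL28, difference -2.26 ± 0.19). ATF3, a stress transcription factor, fell by 1.31 in SW1736 (-1.70 ± 0.37). DDIT4, which restrains mTORC1, and CEBPB, a stress and acute-phase factor chosen after its values were seen, were exceptions, with differences of 2.56 ± 0.23 and 1.45 ± 0.20. In a list of sterol and fatty acid synthesis genes 4 of 26 were lower (15.4%, against 9.54%) and 1 higher (3.85%, against 11.5%). Fewer of its members were called, yet its median difference was -0.32, beside -0.23 for the ATF4 list. The difference was below 0 in 18 of its 26 genes and in 16 of the 28 ATF4 genes. IDI1, isopentenyl isomerase, fell in SW1736 and rose in SKMEL28 (-1.46 ± 0.35), and the fatty acid desaturase gene SCD rose in SKMEL28 (-1.26 ± 0.18). ELOVL6, a fatty acid elongase, was higher (2.21 ± 0.19, with 1.02 on a further probe).

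Matrix and adhesion genes were more often higher than lower. In the matrix list 10 of 32 were higher (31.2%) and 2 lower (6.25%), and 14 of the 32 were expressed in SW1736 alone. Besides TNC and BGN, LOX, the enzyme that cross-links collagen, rose by 0.71 in SW1736 and fell by 2.41 in SKMEL28 (3.12 ± 0.22), as did SPARC, a collagen-binding matrix protein (1.52 in SW1736, -0.90 in SKMEL28, difference 2.43 ± 0.22). Of 17 integrin genes, 7 were higher (41.2%) and 1 lower (5.88%), including the alpha V subunit gene ITGAV (1.11 ± 0.23), whose product pairs with that of ITGB3, and ITGB8 (1.96 ± 0.28). IGFBP3, which binds insulin-like growth factors, rose by 2.79 in SW1736 (2.96 ± 0.29), and NT5E, the ectoenzyme that makes adenosine, fell by 3.35 in SKMEL28 and by 0.44 in SW1736 (2.90 ± 0.22). The protease inhibitor gene TIMP3 differed by 1.86 ± 0.40 and PLAUR, the urokinase receptor, by 2.08 ± 0.26, in a list with 8 of 23 higher (34.8%) and 6 lower (26.1%). ACTA2, smooth muscle actin, rose in SKMEL28 by at least 3.14-fold (-1.54 ± 0.25). In growth factor signalling, ID2, a BMP target that blocks helix-loop-helix factors, rose in SKMEL28 (-2.94 ± 0.31), and BMP2 rose in SW1736 (2.00 ± 0.33), with 9 of 25 members of the TGF-beta, BMP and Wnt list higher (36%) and 2 lower (8%). The Notch target HES1 fell by 0.97 in SW1736 and by 2.54 in SKMEL28 (1.57 ± 0.38).

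Genes of p53 and of cell survival were divided. Of 21 p53 targets, 8 were higher (38.1%) and none lower, led by GDF15, a stress cytokine that was detected only in SKMEL28 and fell there by 3.53 (3.38 ± 0.20), and by TNFRSF10B, a death receptor (1.32 ± 0.19). In the BCL2 family 3 of 19 were higher (15.8%) and 4 lower (21.1%). BCL2L1, which encodes the survival protein BCL-XL, read 12.01, 11.92 and 11.99 at 48 h and 12.11, 12.10 and 12.28 at 0 h in SW1736, and 11.79, 11.66 and 11.53 at 48 h and 10.21, 10.12 and 10.21 at 0 h in SKMEL28. It was raised in SKMEL28 alone (difference -1.67 ± 0.20, adjusted p 1.28e-06). BCL2 fell by 0.90 in SW1736 (-1.31 ± 0.33); further probes gave -0.82 and 0.24, and with the mean of probes (-0.63) it did not pass. BCL2L11, which encodes the pro-death protein BIM that ERK destabilises, changed by -0.65 in SW1736 and 0.60 in SKMEL28, and neither these changes nor their difference passed (-1.25 ± 0.53, adjusted p 0.0993). FOXO-linked genes split, with BCL6, a transcriptional repressor, rising in SW1736 (2.50, difference 2.75 ± 0.18), and TRIM63, a ubiquitin ligase of muscle wasting, rising in SKMEL28 (2.74, difference -2.72 ± 0.21).

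Some of the largest responses were shared. Among genes called the same way in both lines whose difference did not pass, H2AC6, a histone H2A gene, rose by 3.75 in SW1736 and 4.07 in SKMEL28 (difference -0.31 ± 0.26, 95% interval -0.86 to 0.23). MXD4, which opposes MYC, rose by 2.63 in SW1736 and 3.29 in SKMEL28 (difference -0.66 ± 0.35, 95% interval -1.40 to 0.07). KLHL24 differed by 0.13 ± 0.21 (95% interval -0.31 to 0.57) after rises of 2.68 in SW1736 and 2.55 in SKMEL28. The thymidine kinase gene TK1 (-3.55 in SW1736, -4.22 in SKMEL28) and DEPDC1 (-3.70 and -3.96) fell in both, with differences of 0.67 ± 0.30 and 0.26 ± 0.33 and 95% intervals of 0.04 to 1.30 and -0.43 to 0.95. Without the second treated SW1736 array, TK1 differed by 0.99 and passed (adjusted p 0.00781). The intervals of MXD4 and TK1 reach past 1 on the log2 scale, so that a difference which missed the threshold does not show an equal response.

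Several housekeeping lists had few called members, beside 11.5% of all genes higher and 9.54% lower. Proteasome subunits had 3 of 25 higher (12%) and none lower, and ribosome biogenesis factors 3 of 32 (9.38%) and none. Heat shock proteins had none higher and 3 of 26 lower (11.5%). Aminoacyl tRNA synthetases had 2 of 18 higher (11.1%) and 3 lower (16.7%). Of 34 lysosome and autophagy genes, 19 rose in SW1736, where 18.2% of all genes rose, and 22 rose in SKMEL28, where 20.0% did. They split 5 higher (14.7%) and 6 lower (17.6%) in the difference. Cathepsin genes lay on both sides, with CTSL at 1.37 ± 0.25 (0.55 and 0.83 on further probes) and CTSZ at -1.94 ± 0.55.

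**Figure D5:**
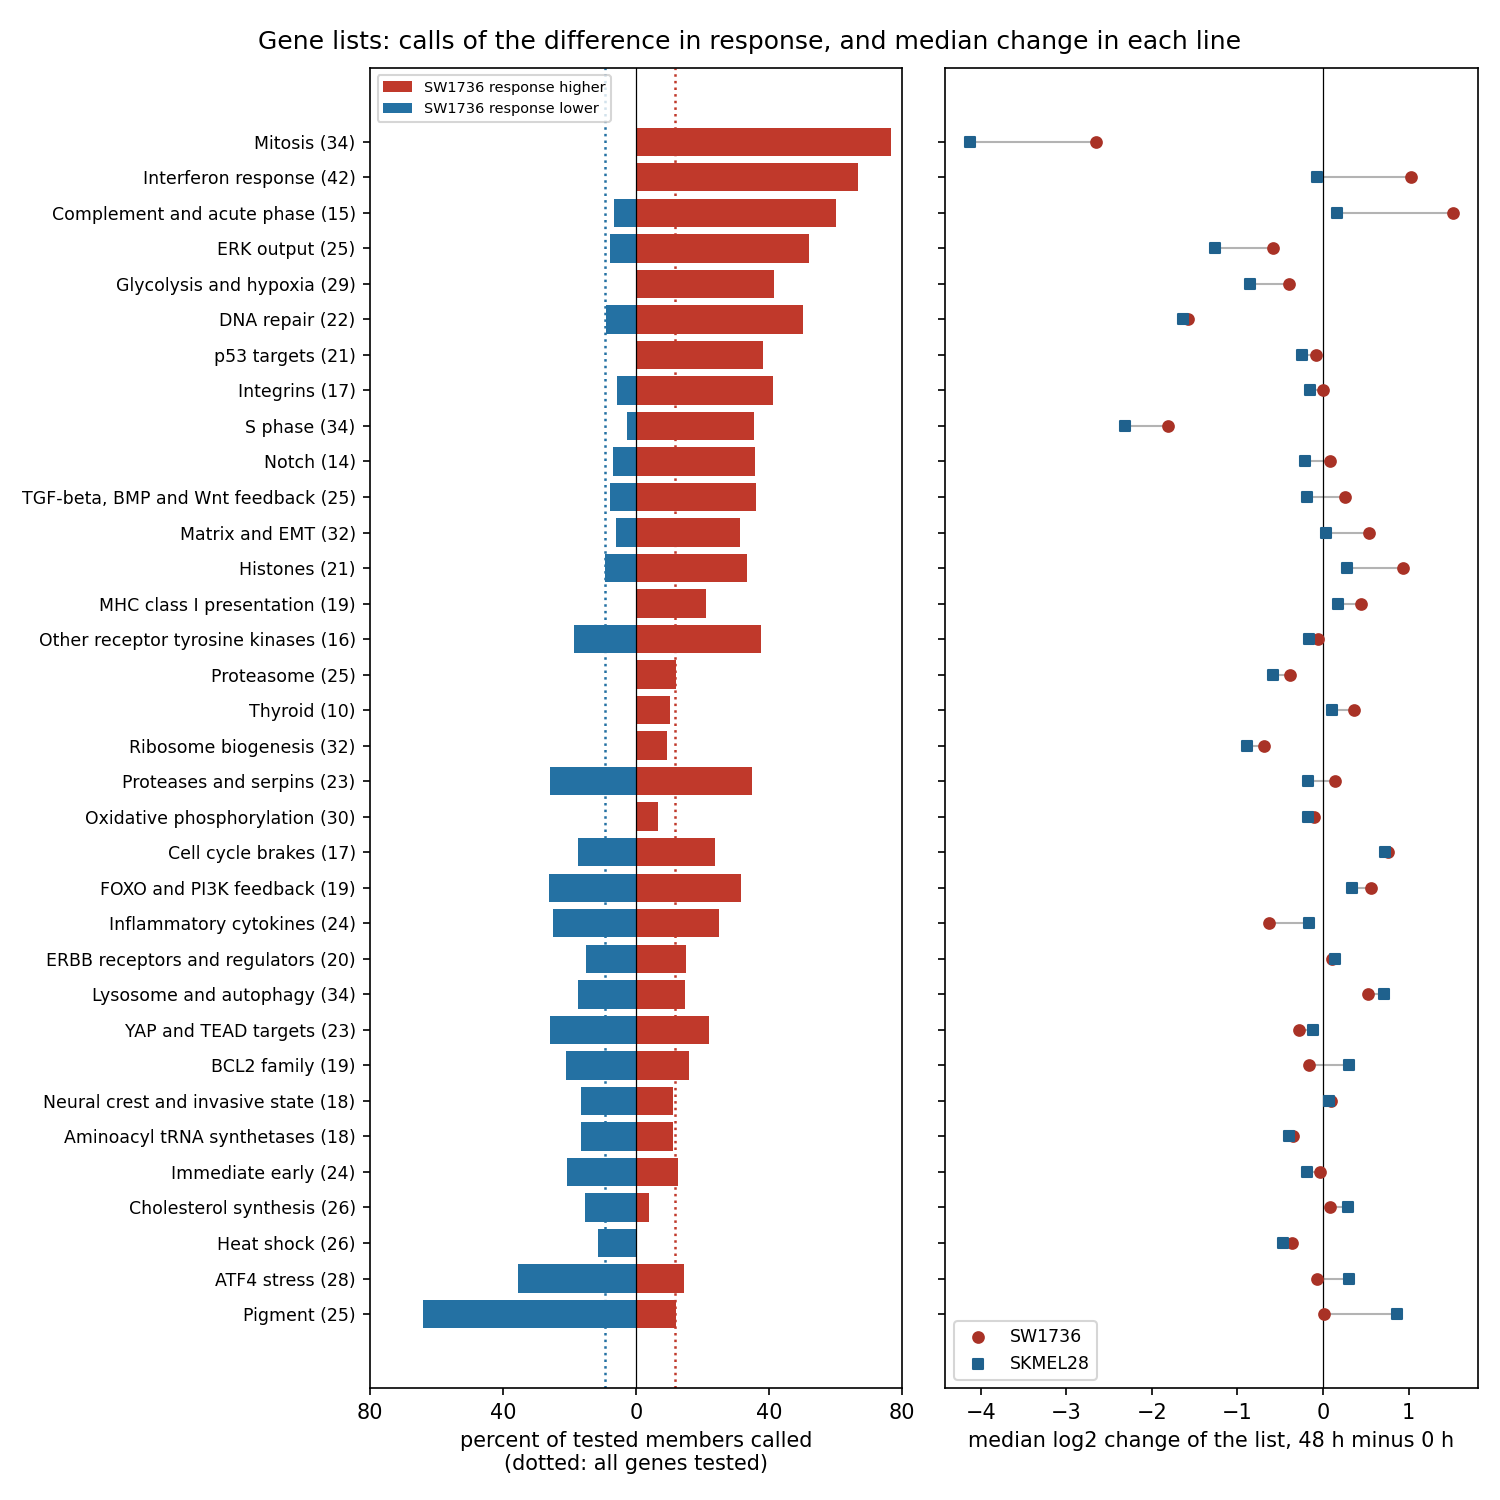
Left, the percent of tested members of each gene list called higher (red, to the right) or lower (blue, to the left) in the SW1736 response than in the SKMEL28 response, with dotted lines at the 11.5% and 9.54% of all genes; list sizes are in parentheses. Right, the median log2 change of each list at 48 h in SW1736 (circles) and SKMEL28 (squares): mitosis, interferon, complement and ERK output lead on the higher side, and pigment and ATF4 stress on the lower side.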

How the data were processed

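Total RNA of both lines was hybridised to 24 Illumina bead arrays as biotin-labelled cRNA, per the labels. The deposited raw table holds linear signal intensities for every probe. Per the file headers, it also holds a detection p-value beside each intensity. The authors' deposited value table appears, from its distribution, to hold log2 values quantile normalized and not centred (column medians 6.90); its scale and direction are not stated, and it served as an alternative. The submitters' processing notes name Partek. The genome build is not given in the sources used here.

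Raw intensities were background corrected (normexp with detection p-values, offset 16), quantile normalized and put on the log2 scale in limma 3.58.1 (R 4.3.3). Probes detected at p under 0.05 on at least 3 of 24 arrays were kept (26673 of 47231); 30113 probes carried 1 gene symbol, 30074 of these matched a current gene, 8 carried several and 17110 none. Each gene was read from its brightest kept probe, which left 13699 genes. All 24 arrays entered a single fit of 8 group means (16 residual and 6.34 prior degrees of freedom), which gave both 48 h changes and their difference, with Benjamini-Hochberg adjustment over all genes at 0.05. The code was tested on simulated data. The precision is limited by the number of arrays.

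Where a group had no array detected by any probe of the gene, a called change is a bound: the bright group's mean against the higher, on each array of the dim group, of the lowest detected signal and the probe's own. Differences in response are as fitted.

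The rule for naming genes took the 12 largest differences each way among called genes expressed in both lines with no overlap over pairings of arrays, the 8 largest each way with opposite called directions, the 5 largest each way expressed in 1 line, up to 4 called members of each of 35 lists, the 4 largest shared responses each way, and a set of pathway genes; the text uses the leading ones. Members and lists were chosen with earlier results of these data known. Genes outside the rule are said to be chosen after their values were seen. List counts are given as shares to be read against those of all genes, with no test of the list.

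The motifs below were searched on both strands of RefSeq promoters (GRCh38.p14, 10873 of the tested genes): a pair of GAAA blocks with NN between (ISRE), TTTNGCGC (E2F), TTTGAA (CHR), CACGTG (the CLEAR E-box), TGATGNAA (CARE), TCACNCCAC (SRE), TGANTCA (AP-1), TCATGTG (M-box), CATTCC (TEAD) and broad NF-kB and CArG-like motifs (GGG and CC with NNNNN between, and CC and GG with NNNNNN between), which 71.8% and 89% of the promoters held; overlapping matches were allowed and a promoter was counted once per motif. Alternatives covered background, scaling, filters, probes, thresholds, weights, replicate blocks and each array left out.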

Additional observations from a re-analysis of the deposited data

Results flagged for a closer look

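A test of the difference itself between the lines, in the response to 48 h of vemurafenib, passed for 131 of the genes named here, and these are given with the difference (SW1736 minus SKMEL28, log2, limma adjusted p under 0.05). Groups of 3 arrays were not searched for single outlying arrays.

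In genes that rose in SW1736 and fell in SKMEL28, the difference was 8.42 for UCN2, 6.47 for NNMT, 5.55 for ADAMTS9, 4.79 for TNC, 4.66 for ITGB3, 4.65 for PLPP3, 3.86 for LXN and 3.63 for CKMT1B. The lines parted in direction here. It was 3.44 for AKR1C2, 3.43 for GBP2, 3.12 for LOX, 3.08 for HIF1A, 2.97 for GBP1, 2.81 for GPC6, 2.57 for SPRY1 and 2.43 for SPARC. Further values were 2.43 for ISG15, 1.91 for SLC2A3, 1.85 for FOSB, 1.78 for DUSP5, 1.45 for CEBPB, 1.37 for CTSL and 1.01 for PSMB10.

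In genes that fell in SW1736 and rose in SKMEL28, the difference was -1.29 for GAB2, -1.46 for IDI1, -1.74 for HBEGF, -2.08 for SMC6, -2.11 for EMP1, -2.26 for SLC3A2, -2.31 for SLC7A5 and -2.43 for ARRDC4. Here too the direction differed, the other way round. It was -2.45 for CDK2, -2.50 for MYO5A, -2.61 for RAB38, -3.07 for HPS4, -3.11 for HES6, -3.18 for JUN and -3.38 for SH3PXD2A.

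In genes that fell in both lines, the difference was 3.79 for HJURP, 3.48 for TOP2A, 3.20 for DUSP6, 2.90 for NT5E, 2.87 for UBE2C, 2.68 for CXCL8, 2.63 for CDC20 and 2.46 for NUSAP1. The sign then says which line fell further, SKMEL28 for a positive value and SW1736 for a negative one, except for BLM, which both lines lost to below detection. It was 2.39 for ETV4, 2.21 for ELOVL6, 2.09 for TYMS, 2.08 for PLAUR, 1.99 for OAS3, 1.72 for PFKP, 1.57 for HES1 and 1.47 for CDC45. Further values were 1.31 for BLM, 1.28 for CDKN1A, 1.22 for EGR1, 1.19 for CHEK1, 0.79 for ETV5, 0.74 for CCND1 and -2.57 for BRCA1.

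In genes that rose in both lines, the difference was 3.16 for C1S, 2.62 for C1R, 1.72 for GAS1, -0.96 for CDKN1B and -1.69 for SMAD6. A negative value means the larger rise in SKMEL28. The C1S rise in SKMEL28 was seen on its brightest probe and not on a further one.

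In genes that rose in SW1736 without a change that passed in SKMEL28, the difference was 5.65 for SLPI, 5.54 for CFB, 4.98 for KCNJ16, 4.92 for CLIC3, 4.77 for RARRES1, 4.25 for BGN, 3.60 for PDGFRB and 3.21 for IFI44L. Several were undetected in SKMEL28. It was 2.96 for SAA1, 2.96 for IGFBP3, 2.75 for BCL6, 2.71 for IFITM1, 2.56 for DDIT4, 2.18 for DIO2, 2.00 for BMP2 and 1.96 for CD14. Further values were 1.88 for H2BC8, 1.68 for PSMB9, 1.58 for CBLB, 1.33 for H3C10, 1.15 for MIR21 and 1.11 for ITGAV.

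In genes that fell in SW1736 without a change that passed in SKMEL28, the difference was -1.31 for BCL2, -1.34 for NRG1, -1.47 for AXL, -1.70 for ATF3, -2.07 for CCN1 and -4.26 for MANCR.

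In genes that fell in SKMEL28 without a change that passed in SW1736, the difference was 3.38 for GDF15, 3.11 for SPRY4, 3.06 for ST8SIA1, 2.80 for FOS, 2.68 for SPRY2, 2.16 for PFKFB4, 2.14 for SLC2A1 and 2.07 for POU3F2. These are positive because the fall was in SKMEL28. It was 1.96 for ITGB8, 1.87 for MC1R, 1.86 for TIMP3, 1.84 for CCL20, 1.63 for PKM, 1.58 for HEY1, 1.58 for IGF1R and 1.46 for DUSP4. Further values were 1.32 for TNFRSF10B and 1.16 for SPRED1.

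In genes that rose in SKMEL28 without a change that passed in SW1736, the difference was -0.97 for MITF, -1.26 for SCD, -1.34 for H2AJ, -1.54 for ACTA2, -1.64 for TYR, -1.67 for BCL2L1, -1.94 for CTSZ and -1.98 for MET. These include most of the pigment genes named. It was -2.07 for MIR211, -2.40 for EDNRB, -2.50 for OCA2, -2.72 for TRIM63, -2.94 for ID2, -3.63 for TYRP1, -3.67 for RAP1GAP and -3.76 for CITED1. Further values were -3.92 for TRPM1, -4.37 for SERPINF1 and -4.75 for KCNJ13.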

How the results depend on the processing

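The count of genes with a different response was 2881 and stayed within 1.5 times of that under other backgrounds, filters, probe rules, priors and weights. Median scaling called 2082 (1172 higher, 910 lower), of which 2057 were shared with the 2881, and gave 172 genes with opposite directions, beside 275. At an adjusted p under 0.01 there were 1750 (978 higher, 772 lower; 134 opposite), and 1719 had a log2 difference of at least 1 (986 higher, 733 lower; 27 opposite with both changes at least 1), beside 1593 changed genes in SW1736 and 2055 in SKMEL28; both follow from the stricter threshold. With 1 array left out in turn, 2451 to 2806 differed (1347 to 1525 higher, 1079 to 1283 lower, 223 to 267 opposite), with 4163 to 4593 changed in SW1736 and 4627 to 5419 in SKMEL28. Without the third SW1736 arrays of both times, an alternative chosen after seeing the data, 2993 differed. Replicate numbers were not used to pair the samples in the main fit. Deviations of same-numbered arrays correlated at -0.04 to 0.14, which with 3 arrays per group cannot settle whether they were paired. A replicate block within each line gave 3024 calls, a shared replicate block 2949 and a random replicate block 2996. Weights by line called 3635 genes in SW1736 and 6733 in SKMEL28, and array weights 3534 and 7001, beside 4692 and 5328, with 2873 and 2916 differing between lines. The median difference of all genes was within 0.1 of 0 under each scaling. Quantile and median scaling give every array the same distribution or median, so this was close to fixed in advance. A change of all transcripts alike could not show.

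Of 178 called genes that the naming rule took or that were added to it, 139 kept the call in the same direction under every setting that tested them (30, or 29 for H3C10) and none reversed. Many of the 178 were taken because their differences were the largest, so their stability does not stand for that of all called genes. Median scaling kept 71.4% of all called genes in the same direction, and 159 of the 178. Leaving out each array in turn kept 83.2% to 87.5% of all called genes, and 167 to 173 of the 178. Differences that kept their call could still shrink. The lowest value over the settings was 5.99 for UCN2, 2.79 for ADAMTS9, 2.29 for KCNJ16, 2.10 for DUSP6, 1.34 for FOS and 1.18 for ETV4. In the main fit these were 8.42, 5.55, 4.98, 3.20, 2.80 and 2.39. Others moved less, with lowest values of 4.38 for TNC and 2.44 for SPRY2, beside 4.79 and 2.68. Some results depended on background correction. Without it CDKN1A (0.46), CHEK1 (0.45), ACTA2 (-0.47) and MIR21 (0.44) lost their calls, and PLK1 (-0.74) gained one. Also without it, 7 of 22 DNA repair genes were higher in place of 11, and the S-phase median difference was 0.12 in place of 0.47. With the mean of a gene's probes, BCL2 (-0.63) and GAB2 (-0.50) lost theirs. Apart from the stricter thresholds, the cause of a change of call was not tested.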

Other observations

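Lineage and patterning genes differed in a few members. DIO2, the deiodinase that activates thyroid hormone, rose by 2.30 in SW1736 and was undetected in SKMEL28 (difference 2.18 ± 0.22), while a further probe, detected on 2 of 12 arrays, gave -0.27; it was the 1 called gene of 10 tested thyroid genes (10%, against 11.5% of all genes higher). POU3F2, a neural crest and melanoma factor also known as BRN2, fell by 2.03 in SKMEL28 (difference 2.07 ± 0.24). A further probe, detected on 1 of 3 untreated SW1736 arrays, gave 0.91, and the list of neural crest and invasive-state genes had 2 of 18 higher (11.1%) and 3 lower (16.7%). Of 14 Notch genes, 5 were higher (35.7%) and 1 lower (7.14%). The target HEY1 fell by 1.67 in SKMEL28 (difference 1.58 ± 0.22), and a further probe, which passed on 1 of 3 SW1736 arrays at each time, gave 1.16, which did not pass. SMAD6, the inhibitory SMAD that BMP induces, rose in both lines, by 1.84 in SW1736 and by at least 10.6-fold in SKMEL28 (fitted difference -1.69 ± 0.29).

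Histone genes had 7 of 21 higher (33.3%) and 2 lower (9.52%), beside 11.5% and 9.54% of all genes. H2BC8 rose in SW1736 by at least 2.15-fold and was undetected elsewhere (difference 1.88 ± 0.28), and H2AJ rose in SKMEL28 alone (-1.34 ± 0.24); histone genes are near-identical copies that a probe may not separate. Other lists were split between directions, with larger shares each way than the 11.5% and 9.54% of all genes. YAP and TEAD targets had 5 of 23 higher (21.7%) and 6 lower (26.1%). FOXO and PI3K feedback had 6 of 19 higher (31.6%) and 5 lower (26.3%). Cell cycle brakes had 4 of 17 higher (23.5%) and 3 lower (17.6%), and immune and stromal markers had 1 of 5 each way (20%).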
